A study of Mus musculus with 69 samples.

Results

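Lungs taken 1 day after either of the 2 lower doses of NRCWE-025, a titanium dioxide (TiO2) nanomaterial (NM), were compared with vehicle lungs of the same day across all measured genes. The members were the 5 arrays titled for 18 µg and the 5 titled for 54 µg, taken as 1 set of 10, and the 5 control arrays of day 1 stood against them, which made 15 of the 69 arrays of the series. All mice were female C57BL/6 animals, delivered at 5 to 7 weeks of age and acclimatised for 1 to 3 weeks. Each mouse was anaesthetised and instilled once through the trachea with particles or with the vehicle alone, which contained 2% serum. The control mice therefore also carried the anaesthesia, the instillation and the vehicle. The series also held 162 µg of this material, the same doses of a second TiO2 material (NRCWE-030) and lungs of day 28. RNA came from a small piece of frozen lung of 1 mouse per array. Each value is the log2 ratio of lung RNA (Cy5) to a commercial pool of mouse RNA (Cy3), and dyes were not swapped. A difference of 1 on this scale is a 2-fold difference, and the ratio of one gene cannot be set against that of another as a level.

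A gene was called when its limma p, adjusted by Benjamini-Hochberg over all 18664 genes tested, was under 0.05. The share of spots well above background in Cy5 ran from 54.4% to 67.0% over the 15 arrays. It was 61.5% ± 4.22 (SD, n = 5) in the controls and 60.7% ± 4.1 (SD, n = 10) at the lower doses (exact permutation p = 0.748, two-sided), and no spot was saturated. Genes that define lung parenchyma were high over the reference on every array. The mean log2 ratio of the endothelial list lay between 4.77 and 5.20, and that of the alveolar type 2 list between 4.62 and 5.13. The arrays lay on 9 slides. Slide 1 held replicate 1 of each group, and slide 5 held replicate 3 of the controls with replicate 2 of each dose. Slides 10 and 11 held replicates 3 and 4 of both doses and no control of day 1. The 3 arrays of slide 5 stood apart by a high fitted background in Cy3, between 51.3 and 53.4 intensity units against values of 11.1 or less on the other arrays, and counts are given with and without them.

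Inhaled or instilled particles are taken up by alveolar macrophages and touch the airway and alveolar epithelium. These cells answer with cytokines and chemokines that bring neutrophils and monocytes into the airspaces, and with acute phase proteins, which the lung makes as well as the liver. Hemopexin (Hpx), which binds free heme, the serum amyloid A proteins and lipocalin 2 (Lcn2), which binds bacterial iron carriers, belong to this last class.

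The lower doses as 1 set differed little from the controls. Of 18664 genes, 1 was called (0.00536%), Ddb1, which was lower, and 0 were called higher. Unadjusted limma p-values under 0.05 numbered 1159 (6.21%), of which 540 genes were higher and 619 lower, against 933 for p-values spread evenly. The median difference over all genes was -0.01 with a median SE of 0.0921, 99.3% of genes lay within 0.5 of 0, and 14 lay beyond 1. The median half-width of a gene's 95% interval was 0.195, so these data limit most genes to differences well under 2-fold, while an interval that includes 0 does not show that a gene did not respond.

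**Figure D1:**
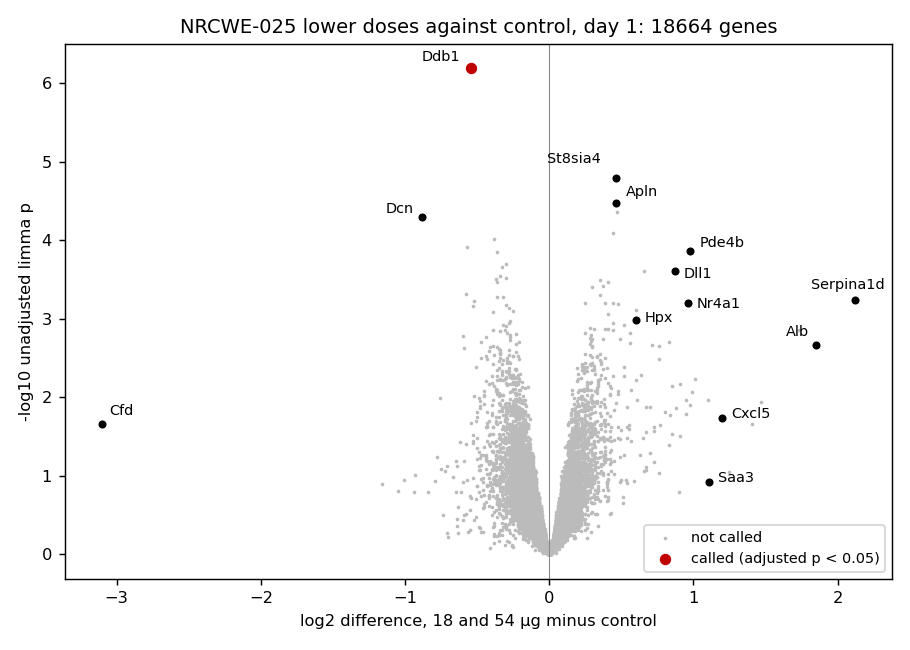
Each point is 1 of 18664 genes, with the log2 difference of the 10 mice at 18 and 54 µg from the 5 controls on the x axis and -log10 of the unadjusted limma p on the y axis. Ddb1 (red) is the called gene, at -0.54, while Cfd (-3.10), Serpina1d (2.12) and Alb (1.85) are the most displaced of the labelled genes and were not called.

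Ddb1 encodes a DNA damage-binding protein that also serves as the adaptor of the CUL4 ubiquitin ligase. Its log2 ratio was -1.42, -1.53, -1.51, -1.47 and -1.79 in control replicates 1 to 5. At 18 µg it was -2.17, -2.12, -2.13, -1.95 and -2.01, and at 54 µg -2.05, -2.01, -2.23, -2.12 and -2.06. All 10 treated mice lay below all 5 controls. Ddb1 fell by 0.54 on the log2 scale (SE 0.07, 95% interval -0.68 to -0.40, limma adjusted p = 0.0121), a 1.45-fold lower ratio, and the doses did not separate, with differences from control of -0.53 at 18 µg and -0.55 at 54 µg. Within slide 1 the difference was -0.69 and within slide 5 it was -0.56. On the scan day that held control replicate 5 and replicate 5 of the 18 µg group it was -0.22. The call rested on single controls: no gene was called without control replicate 1, 2, 3 or 4, and Ddb1 then had limma adjusted p-values up to 0.0922. A single probe measured Ddb1, and without the arrays of slide 5 it was no longer among the called genes.

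Decorin (Dcn), a small proteoglycan of connective tissue that binds collagen, had the next smallest p among the lower genes. Its ratio was 0.51, 0.72, 0.84, 1.1 and 0.40 in the controls. The mice at 18 µg had -0.35, 0.07, 0.26, 0.30 and -0.53, and those at 54 µg had -0.79, 0.01, -0.21, -0.09 and -0.32. No treated mouse reached the lowest control. The difference was -0.88 (SE 0.16, limma adjusted p = 0.187), with -1.08 within slide 1 and -0.80 within slide 5, and Dcn was called only with slide as a random block or scan day as a block, among the settings tried. Markers of tissues around the airspaces also lay lower. The median difference of the 4 mesothelial genes was -0.51 and that of the 8 fat genes -0.68. They moved to -0.84 without control replicate 1 and to -0.23 without control replicate 2 respectively. The collagen and matrix list was at 0.01 and all genes at -0.01. By dose, the mesothelial median was -0.20 at 18 µg and -0.84 at 54 µg, and the fat median -0.82 and -0.68. Without slide 5 the mesothelial median at 18 µg was 0.20. The part of such tissue in the Dcn difference was not tested. In whole lung, fewer cells of a type and less RNA per cell cannot be told apart.

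Other genes with small p-values were lower by amounts of 0.30 to 0.58 on the log2 scale, with limma adjusted p-values of 0.257 to 0.366. Among them were Cyc1 (cytochrome c1 of the respiratory chain), at -0.33, Qars (the enzyme that charges glutamine tRNA), at -0.30, and Tubd1 (delta tubulin), at -0.30. Fbxo31, a substrate receptor of an SCF ubiquitin ligase, was lower by 0.34, the aminopeptidase Dnpep by 0.37, and the adaptor protein Grb7 by 0.36. The phosphatase Ptpn13 was lower by 0.38, the sulphate transporter Slc13a4 by 0.36, Ccdc189 by 0.57 and Dipk1b by 0.58. Under other settings the Slc13a4 difference ran from -0.51 to 0.15 and so turned its sign. Over all genes, 22 (0.118%) had all 10 treated mice below all 5 controls, Ddb1, Dcn, Ccdc189, Grb7, Tubd1, Cyc1, Fbxo31, Qars and Dnpep among them.

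On the higher side, 12 genes (0.0643%) had all 10 treated mice above all 5 controls, and none was called. St8sia4, which builds polysialic acid chains on cell surface proteins, had ratios of 1.52, 1.16, 1.37, 1.37 and 1.41 in the controls. At 18 µg the values were 2.01, 1.85, 1.64, 1.88 and 1.77, and at 54 µg 1.82, 1.84, 1.85, 1.98 and 1.63. The difference was 0.46 (SE 0.08, limma adjusted p = 0.148). Apelin (Apln), a peptide ligand of endothelial cells, was higher by 0.46 and Tlnrd1, a relative of talin, by 0.47, both with a limma adjusted p of 0.187. The receptor phosphatase Ptprg was higher by 0.35 and the early lymphocyte activation antigen Cd69 by 0.37.

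Several signalling genes had larger differences that were absent within slide 5. Pde4b, a phosphodiesterase that degrades cyclic AMP, had ratios of 0.50, 0.88, 1.46, 0.84 and 0.45 in the controls. At 18 µg it had 1.83, 1.88, 1.74, 1.80 and 2.29, and at 54 µg 1.94, 0.87, 2.13, 1.51 and 2.03. The highest control and the lowest treated mouse, control replicate 3 and replicate 2 at 54 µg, shared slide 5. The Pde4b difference was 0.98 (SE 0.20, limma adjusted p = 0.268), with 1.39 within slide 1 and -0.08 within slide 5. Without slide 5, Pde4b was the gene called in place of Ddb1. The 3 probes of Pde4b disagreed, with differences of -0.07, 0.98 and 1.06, and the first was not well above background on any array. The Notch ligand Dll1 followed the same pattern, with 0.87 overall (SE 0.18, limma adjusted p = 0.321), 1.78 within slide 1 and -0.18 within slide 5. Dusp6, a phosphatase that switches off ERK kinases, was higher by 0.66, by 0.91 within slide 1 and by 0.02 within slide 5. The third array of slide 5, replicate 2 at 18 µg, had Pde4b at 1.88, inside the range of its group. What lay behind the slide 5 values in these genes was not tested.

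Each dose was then set against the same controls. At 18 µg, 0 genes were called (932 at an unadjusted limma p under 0.05, the smallest adjusted p being 0.0922 and 1 gene called with slide as a random block or without background correction). At 54 µg, 2 genes were called (0.0107%), Hpx, which rose, and Ddb1, which fell. Deviations from the group means had a median correlation of 0.31 over 8 pairs of arrays on the same slide (-0.06 to 0.64). Over 97 pairs on different slides it was -0.13 (-0.59 to 0.67). All pairs within a group lay on different slides, and deviations from a shared group mean correlate negatively by construction. The gap between these medians is therefore partly built in. Slide is not modelled in this fit. With slide as a random block 13 genes were called at 54 µg, 3 between the doses and 3 for both doses against control, and with slide as a fixed block 0 were called at 54 µg. With scan day as a fixed block, too, neither Hpx nor Ddb1 was called at 54 µg (limma adjusted p of 0.508 and 0.433). Between the doses themselves 1 gene was called (0.00536%), again Hpx, with 614 genes at an unadjusted limma p under 0.05. Genes beyond 1 on the log2 scale numbered 19 at 18 µg and 46 at 54 µg.

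Hpx had ratios of 0.35, -0.23, 0.38, 0.23 and 0.08 in the controls. At 18 µg it had 0.13, -0.03, 0.39, 0.11 and 0.05, in the same range as the controls. At 54 µg it had 1.71, 0.76, 1.14, 1.75 and 1.57. All 5 mice at 54 µg lay above all 10 others. The share of all genes that separate in this way was not counted, here or for Cxcl5 and Serpina3m below. Hpx rose by 1.23 (SE 0.17, 2.34-fold, limma adjusted p = 0.0285) against control and by 1.26 (SE 0.17, 2.39-fold, limma adjusted p = 0.036) against 18 µg. The mean of both doses, 0.60 above control, hid this step and was not called (limma adjusted p = 0.472). Within slides the 54 µg array stood above the 18 µg array of the same slide by 1.59 on slide 1, 0.78 on slide 5, 0.75 on slide 10 and 1.64 on slide 11. Of the 15 fits that left out 1 array, the call between doses held in 2, those without control replicate 2 and without replicate 2 of the 54 µg group. The call between doses was also lost without background correction, on the authors' normalized values, on the scanner's log ratios, with scaling between arrays, with a fixed term for slide or for scan day and with more groups in the fit, while the difference stayed between 1.15 and 1.76.

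The promoters of Hpx, Saa3 and Lcn2 are shown because their list of acute phase genes separated the doses and shared a motif that the list did not use. Sequences are from RefSeq (build GRCm38.p6), 250 bases before to 50 after the gene start, all on the minus strand: Hpx at chr7:105600067-105600366, Saa3 at chr7:46715627-46715926 and Lcn2 at chr2:32387690-32387989. Capitals mark the letters of the C/EBP motif TTGCNNAA on either strand. C/EBP factors are known regulators of acute phase genes.
Hpx: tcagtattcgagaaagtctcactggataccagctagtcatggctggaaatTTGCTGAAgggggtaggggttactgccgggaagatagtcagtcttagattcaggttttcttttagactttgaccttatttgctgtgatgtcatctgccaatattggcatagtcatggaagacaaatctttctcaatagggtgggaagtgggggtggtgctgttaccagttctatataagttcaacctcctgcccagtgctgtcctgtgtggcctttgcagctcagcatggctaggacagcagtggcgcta
Saa3: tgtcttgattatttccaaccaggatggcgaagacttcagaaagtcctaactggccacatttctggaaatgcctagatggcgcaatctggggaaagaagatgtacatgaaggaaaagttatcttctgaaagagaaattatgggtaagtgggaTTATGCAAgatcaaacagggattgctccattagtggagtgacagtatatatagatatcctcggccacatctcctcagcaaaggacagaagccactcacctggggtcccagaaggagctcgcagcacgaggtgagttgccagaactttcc
Lcn2: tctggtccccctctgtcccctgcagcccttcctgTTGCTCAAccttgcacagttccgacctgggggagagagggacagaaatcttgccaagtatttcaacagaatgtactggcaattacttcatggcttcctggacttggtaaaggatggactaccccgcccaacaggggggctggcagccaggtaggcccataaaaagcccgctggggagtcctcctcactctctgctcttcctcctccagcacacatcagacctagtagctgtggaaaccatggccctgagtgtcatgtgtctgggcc
The letters TTGCNNAA, searched on both strands, stood in the promoters of 10 of the 14 acute phase genes with an entry (71.4%; Cp, Fga, Fgb, Hpx, Lcn2, Orm2, Saa1, Saa2, Saa3 and Saa4) and in 12.2% of the 27025 genes of the table. The shares among chemokine and immediate early genes were 2 of 21 (9.52%) and 1 of 16 (6.25%). The STAT motif TTCNNNGAA stood in 4 of the 14 acute phase promoters (28.6%) against 9.55% of genes. The kappa B motif stood in 5 of 21 chemokine promoters (23.8%; Ccl20, Ccl9, Cxcl1, Cxcl2 and Cxcl3), in 5 of 16 immediate early promoters (31.2%) and in 0 of 14 acute phase promoters, against 9.55% of genes. The CRE, CArG and E-box motifs were searched as well and stood in 0, 1 and 0 of the 14 acute phase promoters. Related genes, such as those of serum amyloid A, count here as separate genes. A match of letters describes the sequence and does not show that a factor was bound, and the motifs may overlap.

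The 18 acute phase genes as a list lay near or below control at 18 µg and above it at 54 µg, with median differences of -0.16 and 0.64 against -0.01 for all genes at each dose. The mean of the list ranged from 0.28 to 0.76 in the controls, from 0.13 to 0.54 at 18 µg and from 0.83 to 1.74 at 54 µg, so that the 54 µg mice did not overlap with the others. The list holds Fgb and Fgg, which the liver also makes, and the mean of the 4 liver genes lay between 0.22 and 2.95 at 54 µg against -0.01 to 0.19 in the controls. The part of liver-type RNA in the list mean was not tested. Of the 18 genes, 1 was called at 54 µg (Hpx) and 0 at 18 µg. The median at 54 µg stayed between 0.50 and 1.39 under the other settings and between 0.43 and 0.81 when 1 array was left out.

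**Figure D2:**
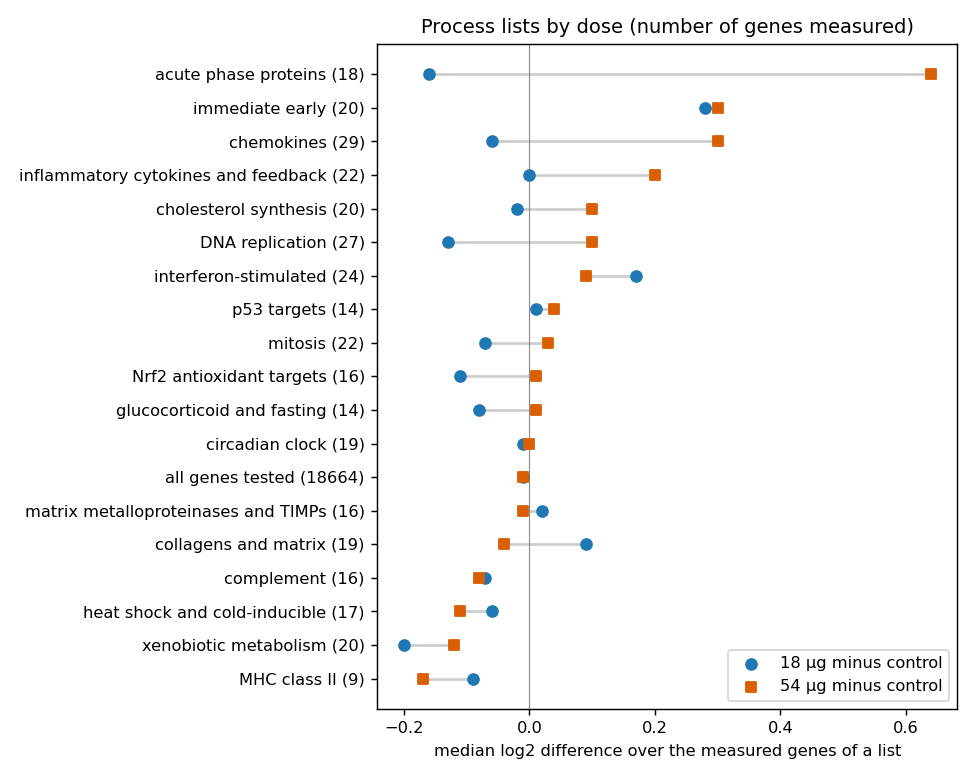
Median log2 difference from control over the measured genes of each process list, at 18 µg (blue circles) and 54 µg (orange squares), with all 18664 genes for comparison and the number of genes in parentheses. The acute phase list moves from -0.16 to 0.64 and the chemokine list from -0.06 to 0.30, while the immediate early list lies at 0.28 and 0.30.

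Serum amyloid A3 (Saa3), an acute phase apolipoprotein made in lung epithelium and macrophages, was low over the reference in the controls, at -2.68, -1.91, -2.55, -3.25 and -2.69. At 18 µg it was -3.24, -2.32, -2.82, -3.89 and -2.06. At 54 µg it was -0.77, 1.72, 2.70, -1.63 and -2.71. The mice at 54 µg were spread widely: replicates 2 and 3 were far above all controls, replicates 1 and 4 were above them by less, and replicate 5 lay within the control range. The difference at 54 µg was 2.48 (SE 0.78, limma adjusted p = 0.51), not called. Saa1 and Saa2, near-identical liver-type serum amyloid genes whose probes may read each other's RNA, were likewise highest in replicates 3 and 2. Saa1 at 54 µg had 0.22, 1.87, 2.80, 0.31 and -0.17 against -0.51 to 0.13 in the controls, and its difference was 1.17 (SE 0.42, limma adjusted p = 0.638). Saa2 was higher by 1.19 at 54 µg and lower by 0.13 at 18 µg.

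Lcn2 had ratios of 1.57, 2.17, 2.07, 1.79 and 1.25 in the controls and 0.97, 1.94, 1.59, 1.62 and 1.60 at 18 µg. At 54 µg it had 2.98, 4.40, 4.73, 2.87 and 1.75, again with replicates 3 and 2 at the top and replicate 5 among the controls. The difference from control at 54 µg was 1.57 (SE 0.42, 2.98-fold, limma adjusted p = 0.35) and that from 18 µg was 1.80 (SE 0.42, limma adjusted p = 0.802). Timp1, an inhibitor of matrix metalloproteinases, was highest in the same mice, with -1.59, 0.06, -0.01, -2.01 and -1.93 at 54 µg against -2.42 to -2.08 in the controls. Its difference was 1.14 (SE 0.34, limma adjusted p = 0.478), and its 2 probes differed in size for the lower doses, 0.28 and 0.72. The list of 16 metalloproteinases and TIMPs had a median difference of 0.01 at the lower doses.

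Serpina3m, a serine protease inhibitor with one of the smallest p-values between the doses, was uniform at 54 µg where Saa3 was not. Its ratios at 54 µg were 3.31, 3.74, 3.60, 3.60 and 3.57, all above the controls (2.22 to 3.10) and the mice at 18 µg (2.64 to 2.96). The difference between the doses was 0.78 (SE 0.15, limma adjusted p = 0.552) and that of 54 µg from control 0.91 (SE 0.15, limma adjusted p = 0.0783). Genes lower at 54 µg than at 18 µg with the smallest p were Tinag, by 0.47, Dleu2, by 0.31, and Ndst1, by 0.42, all with a limma adjusted p of 0.802.

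Among the ligands that draw leukocytes, Cxcl5, a neutrophil chemokine of alveolar epithelium, had the largest difference of the 29 chemokine genes. Its ratio was -2.50, -2.84, -3.87, -3.66 and -3.02 in the controls and -2.89, -3.55, -3.19, -4.15 and -3.38 at 18 µg. At 54 µg it was 0.49, 0.00, 1.08, -1.83 and -2.31. The spot was well above background on 2 control arrays, 1 array at 18 µg and all 5 at 54 µg. All 5 mice at 54 µg exceeded every other mouse, replicates 1 to 3 by a wide margin and replicates 4 and 5 narrowly. The computed differences were 2.66 from control (SE 0.53, limma adjusted p = 0.17) and 2.92 from 18 µg (SE 0.53, limma adjusted p = 0.458). Since most arrays of both lower groups were not well above background, the size of these differences is not well measured, and no fold is given.

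The chemokine list as a whole had 23 of 29 genes higher at the lower doses, 1 of them at an unadjusted limma p under 0.05, against 2.89% of all genes in that direction, and 0 were called. Its median was -0.06 at 18 µg and 0.30 at 54 µg. The neutrophil chemokine Cxcl1 was higher by 0.82 at 54 µg and lower by 0.29 at 18 µg. Its spot was well above background on 9 of the 15 arrays, so the size of these differences is not well measured. The monocyte chemokines Ccl2 and Ccl7 were higher by 0.77 and 0.90 at 54 µg and lower by 0.33 and 0.08 at 18 µg. For these 3 genes replicate 3 was the highest mouse at 54 µg, with -1.77, -1.49 and -0.68 against highest control values of -3.22, -3.29 and -2.44. Cxcl3 was well above background on 4 of 5 arrays at 54 µg and on none of the controls or of the 18 µg arrays, so no fold is given. Cxcl2 was not well above background on any of the 15 arrays.

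**Figure D3:**
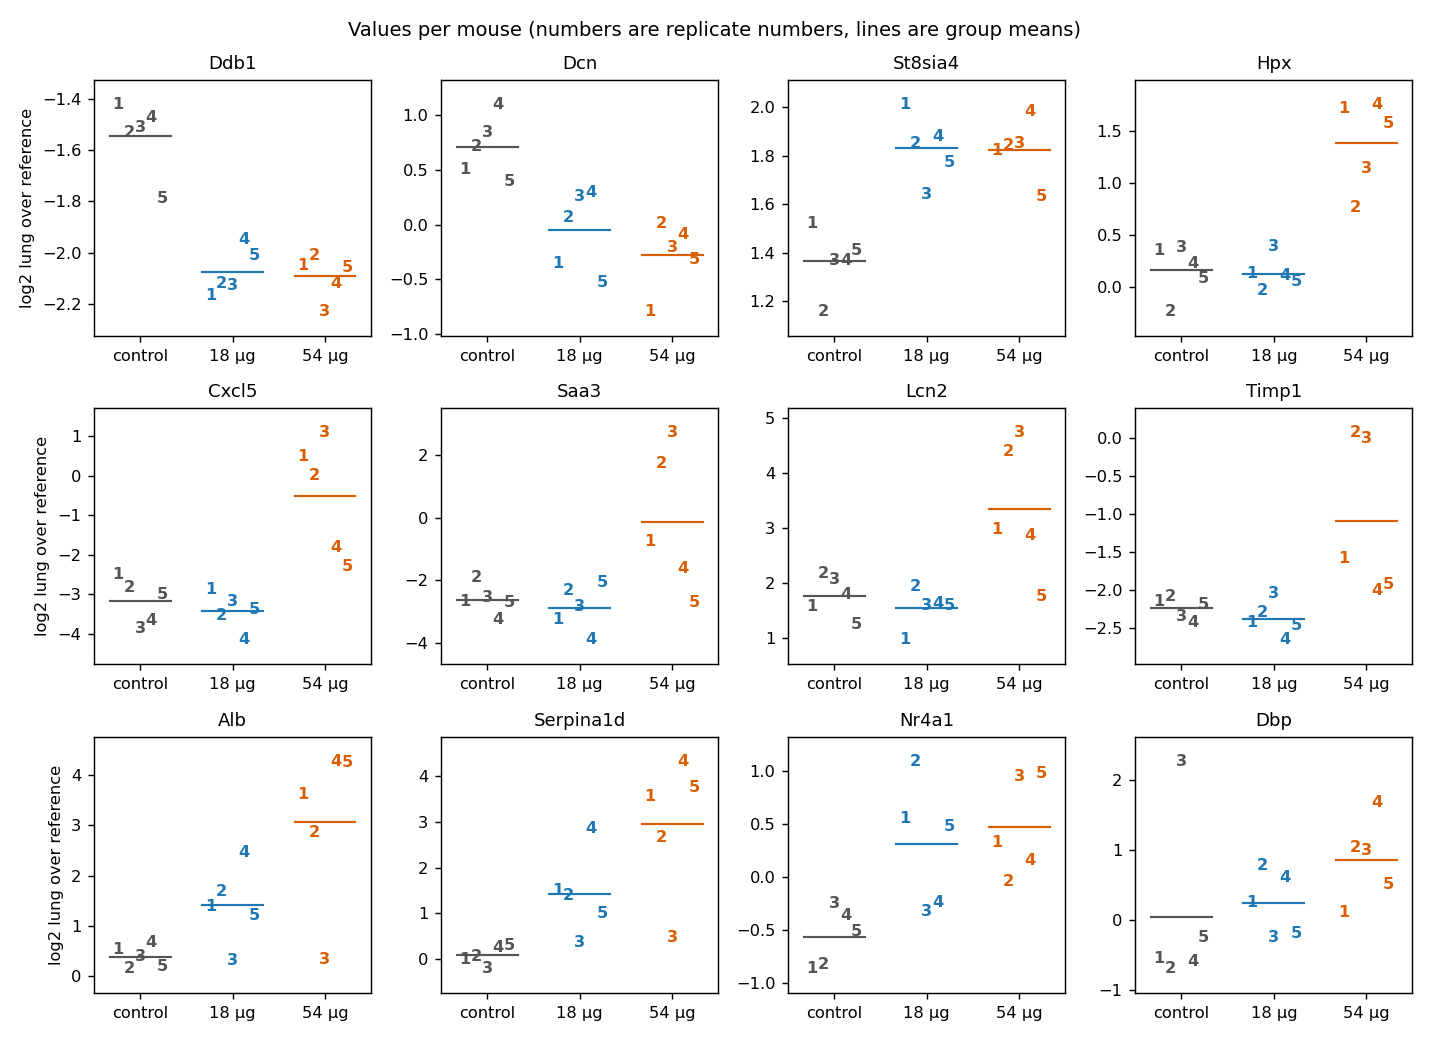
Log2 ratio of lung to reference for 12 genes in each mouse, by group. Numbers are replicate numbers and lines are group means of 5 mice. Hpx separates all 5 mice at 54 µg, Saa3, Lcn2 and Timp1 are highest in replicates 2 and 3, and Alb and Serpina1d are highest in replicates 4, 5 and 1 and near control in replicate 3.

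A second set of genes at 54 µg followed another order of mice. Serpina1d, one of the near-identical genes of alpha-1-antitrypsin, whose probe cannot separate the copies with certainty, had ratios of -0.03, 0.04, -0.21, 0.25 and 0.29 in the controls. At 18 µg it had 1.5, 1.38, 0.35, 2.86 and 0.99, and at 54 µg 3.55, 2.66, 0.47, 4.33 and 3.75. All 10 treated mice lay above all 5 controls, replicate 3 of each dose only just. The difference was 2.12 at the lower doses (SE 0.49, 4.33-fold, limma adjusted p = 0.366), 1.35 at 18 µg and 2.88 at 54 µg, and none was called. Albumin (Alb), the main plasma protein made by the liver, had 0.54, 0.16, 0.39, 0.66 and 0.20 in the controls. It had 1.39, 1.69, 0.31, 2.46 and 1.2 at 18 µg and 3.62, 2.85, 0.33, 4.27 and 4.25 at 54 µg. The Alb difference was 1.85 (SE 0.51, 3.60-fold, limma adjusted p = 0.506), with 1.96 within slide 1 and 1.88 within slide 5.

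Fibrinogen chains, plasma proteins that the liver releases in the acute phase and that lung epithelium can also make, were measured as 3 genes, of which Fgg and Fgb were highest in the same 3 mice and Fga was well above background on 1 array. Fgg was higher by 1.85 at 54 µg (SE 0.41, limma adjusted p = 0.251) and by 0.05 at 18 µg. The Fgb spot was well above background on 1, 3 and 4 arrays of the control, 18 µg and 54 µg groups, so the size of its difference is not well measured and is not given. Fetuin (Ahsg), a plasma protein of the liver named here after its values were seen, had 3.44, 2.54, 0.86, 4.48 and 4.08 at 54 µg against 0.08 to 0.86 in the controls. The liver list of 4 genes, Alb, Serpina1d, Apoa2 and Ttr, ranged from -0.01 to 0.19 in the controls, from 0.11 to 1.47 at 18 µg and from 0.22 to 2.95 at 54 µg, with a median difference of 1.27. Ttr, a further abundant liver transcript, differed by 0.08. Its spot was well above background on 1 array and that of Apoa2 on 6, so the size of their differences is not well measured. With dim genes left out, the median difference of the liver list at the lower doses was 1.98. Without replicate 3 of the 54 µg group, the lower doses gave 4 called genes (Ahsg, Alb, Ddb1 and Serpina1d) and 54 µg alone gave 24.

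The 3 mice with the highest Hpx at 54 µg (replicates 4, 1 and 5) were also the 3 with the highest Alb. Replicate 3, with Alb at 0.33, inside the control range, had Hpx at 1.14, above all controls, and the mice at 18 µg differed from control by 1.02 in Alb and by -0.03 in Hpx. The part of liver-type RNA in the Hpx call was not tested. Saa3, Lcn2 and Timp1 were highest in replicates 2 and 3 at 54 µg, where the liver list was lowest.

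**Figure D4:**
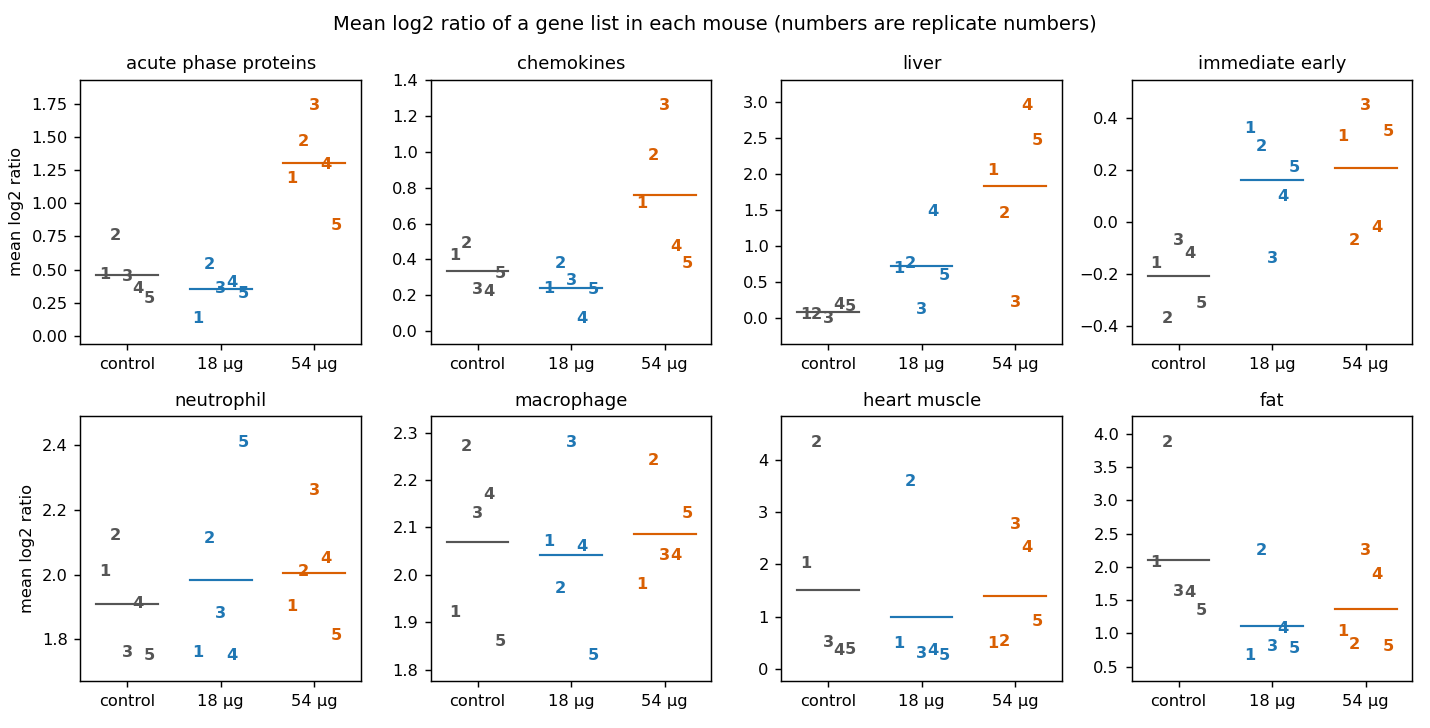
Mean log2 ratio over the genes of 8 lists in each mouse, by group, with replicate numbers as points and group means as lines. Acute phase and chemokine lists are highest in replicates 3 and 2 at 54 µg, the liver list in replicates 4 and 5, and the heart muscle and fat lists in single mice of each group, such as control replicate 2.

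Immediate early genes, transcription factors and phosphatases that cells induce within minutes of a stimulus, lay higher at both doses alike. All 20 measured members had a difference above 0 at the lower doses, against 45.8% of all genes, and 10 had an unadjusted limma p under 0.05 (2.89% of all genes were higher at that level), but 0 were called. The median difference was 0.35 at the lower doses, 0.28 at 18 µg and 0.30 at 54 µg. The mean of the list was -0.37 to -0.07 in the controls, -0.14 to 0.36 at 18 µg and -0.07 to 0.45 at 54 µg, so the groups overlapped in their lowest treated mice. Nr4a1, an orphan nuclear receptor, had -0.86, -0.83, -0.25, -0.36 and -0.51 in the controls. It had 0.55, 1.09, -0.33, -0.24 and 0.48 at 18 µg and 0.33, -0.04, 0.95, 0.16 and 0.98 at 54 µg. The Nr4a1 difference was 0.96 (SE 0.22, 1.94-fold, limma adjusted p = 0.366), with 1.30 within slide 1 and 0.78 within slide 5, and 9 of 10 treated mice exceeded all controls. The zinc finger factors Egr1, Egr2 and Klf4 were higher by 0.83, 0.60 and 0.91, and the AP-1 subunits Jun, Junb and Fos by 0.36, 0.43 and 0.43. The MAP kinase phosphatase Dusp1 was higher by 0.99 and ranged from 0.68 to 2.42 in the controls and from 1.26 to 3.54 in the treated mice.

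Of the 22 inflammatory cytokine and feedback genes, 4 were higher at an unadjusted limma p under 0.05 (2.89% of all genes) and 0 were called. Interleukin 1 beta (Il1b) had 2.28, 1.90, 1.57, 1.93 and 1.85 in the controls. At 18 µg it had 2.75, 2.96, 2.10, 2.45 and 2.38, and at 54 µg 2.56, 2.91, 3.78, 2.53 and 2.18. In 8 of 10 treated mice it lay above all controls, and the doses overlapped. The difference was 0.76 (SE 0.21, 1.69-fold, limma adjusted p = 0.506). Its antagonist Il1rn was higher by 0.26, over 2 probes at -0.02 and 0.53. The first probe was not well above background on any array, while the second was on all 15. The NF-kappa B inhibitor Tnfaip3 was higher by 0.41 and the cytokine signalling suppressor Socs1 by 0.36. Il6 was higher by 0.37 (95% interval -0.08 to 0.81), and Tnf by 0.12. Interferon-stimulated genes had a median of 0.14 over 24 genes, with 3 higher at that level (again 2.89% of all genes).

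Most genes of xenobiotic metabolism lay lower. Of 20 xenobiotic metabolism genes, 17 were lower, 4 of them at an unadjusted limma p under 0.05 (3.32% of all genes), and 0 were called. Aldehyde oxidase (Aox1) had 1.73, 1.58, 1.69, 1.66 and 1.61 in the controls and did not exceed 1.53 in any treated mouse. It was lower by 0.29 (SE 0.08, limma adjusted p = 0.481), by 0.36 at 18 µg and by 0.22 at 54 µg. Cyp2s1 was lower by 0.48 and Cyp1a1, the best known target of the aryl hydrocarbon receptor, by 0.37. The airway secretory list had a median of -0.33 at the lower doses, but of -0.87 at 18 µg and 0.17 at 54 µg, and its mean spanned 1.60 to 5.66 in the controls alone. Its median was 0.21 without control replicate 2 and -0.84 without control replicate 5. The part of this list in the xenobiotic genes was not tested.

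Other processes stayed near the median of all genes. Medians at the lower doses were -0.04 for 16 Nrf2 antioxidant targets, 0.00 for 14 p53 targets, 0.00 for 22 mitosis genes, -0.01 for 27 DNA replication genes, 0.01 for 19 collagen and matrix genes and -0.07 for 16 complement genes. Between the doses, the medians of 54 µg minus 18 µg were 0.20 for DNA replication, 0.13 for Nrf2 targets and 0.07 for mitosis. They were -0.01 for p53 targets, 0.00 for complement and -0.13 for collagen and matrix, beside 0.01 for all genes. The DNA replication value stayed between 0.15 and 0.27 when 1 array was left out. None of these lists held a gene called for the lower doses, where 1 of 18664 genes was called (0.00536%), so lists of this size would seldom hold one. In the study's 10 biclusters, gene sets it drew from lung disease models of other series, 0 members were called, beside that same share of all genes. Bicluster-3, the chemokine set, had medians of -0.05 at 18 µg and 0.23 at 54 µg, and bicluster-7, the fibrosis set, -0.01 and 0.08.

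Leukocyte lists had medians between -0.17 and 0.11. The 12 neutrophil genes had a median of 0.11, with list means of 1.75 to 2.12 in the controls, 1.75 to 2.41 at 18 µg and 1.81 to 2.26 at 54 µg. Differences within the list ran from -0.60 to 0.38, with 10 genes higher and 2 lower. The granule genes S100a8 and S100a9 were higher by 0.26 and 0.13, and the receptor Csf3r by 0.38, none called. The 11 macrophage genes had a median of -0.01, the 8 T cell genes -0.17 and the 9 B cell genes -0.04. Heart muscle genes had list means from 0.26 to 4.34 with high values in all 3 groups (control replicates 1 and 2, replicate 2 at 18 µg and replicates 3 and 4 at 54 µg). The fat gene Cfd, adipsin, had the lowest difference of all genes, -3.10 (SE 1.22, limma adjusted p = 0.728). Its ratios were 6.21, 8.55, 4.47, 4.40 and 3.80 in the controls, from -0.09 to 6.58 at 18 µg and from 0.12 to 6.45 at 54 µg. Fat list means of 1.34 to 3.88 in the controls and 0.67 to 2.25 in the treated mice moved with it.

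Clock genes set 1 control apart. Dbp, a clock output factor, was 2.26 in control replicate 3 and -0.69 to -0.25 in the other controls, while the core clock factor Arntl was -1.70 there and 0.36 to 0.82 in the others, and Per2 was 0.98 against -0.12 to 0.14. The treated mice had Dbp from -0.26 to 1.67. With this control in the fit, Dbp differed by 0.51 (SE 0.40), Arntl by -0.10 and Per2 by -0.04, and the list of 19 clock genes had a median of 0.00 with 0 called. Leaving out 1 array moved Dbp to between 0.33 and 1.07 and Arntl to between -0.55 and 0.08. This control lay on slide 5 and was also the highest control for Pde4b and Dll1.

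To place the lower doses within the dose series, the 5 mice given 162 µg of the same material were set against them in a fit of all 69 arrays, in which controls cancel. This comparison called 14 genes (0.075%), 7 higher and 7 lower. Saa3 rose by 4.05 (SE 0.81, 16.5-fold, limma adjusted p = 0.0162), Saa1 by 2.72 (SE 0.46, 6.61-fold, limma adjusted p = 0.00202), Saa2 by 2.12 (SE 0.40, limma adjusted p = 0.00642) and Timp1 by 1.70 (SE 0.37, limma adjusted p = 0.0307). The spread at 162 µg was wide, with Saa3 from -2.18 to 5.54 over 5 mice (SD 3.00) and an SD of 1.98 for Saa1. The SEs and p-values pool the spread over all 14 groups of the fit, so they understate the spread at 162 µg for such genes. With only the groups of the contrast in the fit, 3 genes were called. Hpx was higher at 162 µg than at the lower doses by 0.89 (SE 0.28, limma adjusted p = 0.197), with a mean of 1.65 against 1.39 at 54 µg. Cxcl5 had a mean of -1.18 at 162 µg and of -0.51 at 54 µg. Among genes that fell, Slc13a4, by 0.77, had means of 2.78 in the controls, 2.48 at 18 µg, 2.36 at 54 µg and 1.65 at 162 µg, a stepwise order in which 18 and 54 µg were not called apart. Its difference from control at the lower doses ran from -0.51 to 0.15 under other settings, so the first step of this order was not stable. Dleu2, Nxph3 and Pcolce2 fell by 0.51, 0.74 and 0.93 below the lower doses, where Nxph3 and Pcolce2 had stood at 0.12 and 0.10 above control. The count of 14 depended on single mice at 162 µg: it was 45 without replicate 3 and 2 without replicate 4 of that group.

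**Figure D5:**
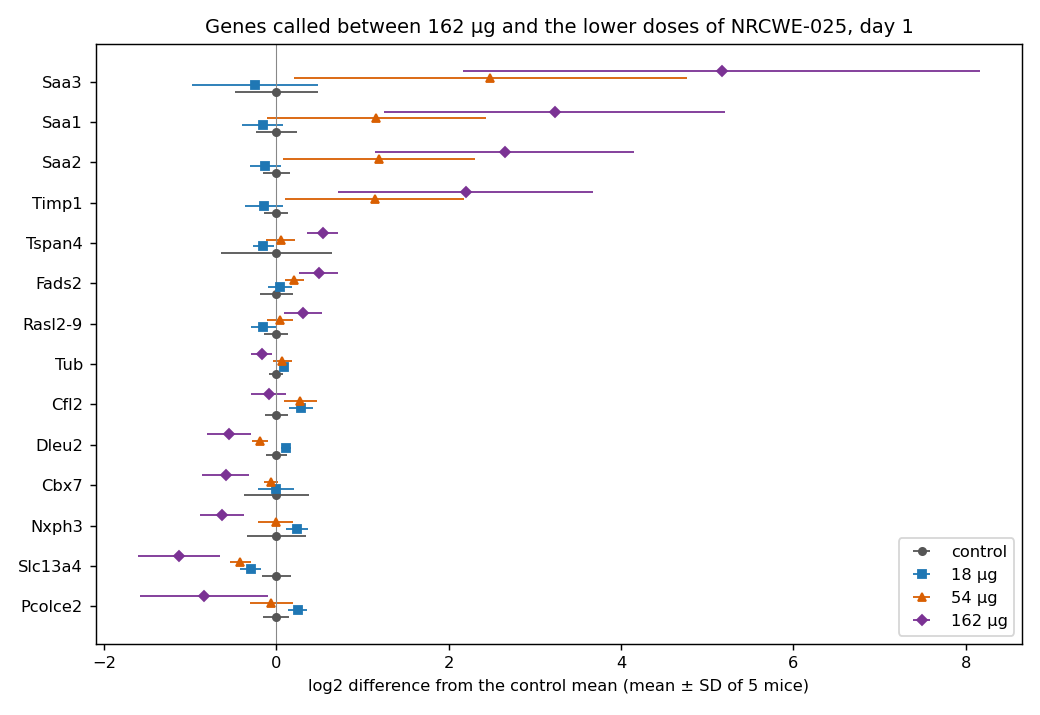
Mean ± SD of 5 mice for the 14 genes called between 162 µg and the lower doses of NRCWE-025 on day 1, as log2 difference from the mean of the 5 controls, at control (grey), 18 µg (blue), 54 µg (orange) and 162 µg (purple). Saa3, Saa1, Saa2 and Timp1 lie at or below control at 18 µg and above it, with wide spread, at 54 and 162 µg.

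The same doses of NRCWE-030 on day 1 were the nearest group by design. Set directly against them, with controls cancelling, 43 genes differed (0.23%), 17 higher and 26 lower with NRCWE-030. The count ran from 12 to 77 under other settings and from 19 to 111 when 1 array was left out, the lowest without replicate 2 of the 54 µg group of NRCWE-030 and the highest without replicate 2 of its 18 µg group. Nxph3 was lower with NRCWE-030 by 0.93 (SE 0.11, limma adjusted p = 3.81e-08), with means of 3.29 and 3.04 at 18 and 54 µg of NRCWE-025 and of 2.38 and 2.08 at the same doses of NRCWE-030. The tetraspanin Tspan4 was higher by 0.79 (SE 0.10, limma adjusted p = 1.34e-06), with -0.75 and -0.55 against 0.02 and 0.26. Clock genes were among the called ones: Per2 was higher with NRCWE-030 by 0.66 (SE 0.09, limma adjusted p = 1.76e-05) and Arntl lower by 0.93 (SE 0.17, limma adjusted p = 0.00232). The time of day of instillation and of dissection is not given in the sources used here. The developmental factor Eya1 was lower by 0.59 and the autophagy gene Wdr45 by 0.60. Against their controls the NRCWE-025 mice differed by 0.12 in Nxph3 and by -0.05 in Tspan4, neither called.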

How the data were processed

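Per the file headers, the deposited scanner files, made with Agilent Feature Extraction 11.0.1.1, hold median spot and local background signals as uncorrected intensity values, flags for each spot, and a log10 ratio of Cy5 to Cy3 after background subtraction and dye normalization. The deposited series matrix holds log2 values from the authors' LOWESS normalization of each array. Here the intensities were corrected by normexp (offset 50, with local backgrounds marked as outliers replaced by the array's median), normalized by loess and combined by the median over spots and probes, in limma 3.58.1 and R 4.3.3. Files were read through data.table (version 1.17.8). Figures were drawn with matplotlib 3.10.9. RefSeq GRCm38.p6 named 27501 of 41174 probes (66.8%), and 18664 genes had a value on all 69 arrays. The array design refers to an earlier assembly, so no probe position is given.

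The contrasts of the lower doses, of each dose, between the doses and an F-test came from 1 limma fit of the 3 group means on 15 arrays (12 residual degrees of freedom), and the contrasts with 162 µg and with NRCWE-030 from 1 fit of 14 groups on 69 arrays. All contrasts were two-sided. The members and the 47 gene lists (18 processes, 19 cell types, 10 biclusters of the study) were chosen with earlier results of these data known, and list counts and medians carry no test. Named genes were the 12 with the smallest p in each direction for the lower doses and the 3 in each direction between doses (both among genes well above background on at least 8 of 15 arrays), 3 members of each process list by p and 2 of each cell list by signal, the 5 with the smallest p in each of the last 2 contrasts, and 22 genes that earlier results had named. Other genes are named because a list or count holds them, after their values were seen. One gene that this rule names is not reported here. Serpina1a of the liver list was measured as Serpina1d. The replicate numbers follow deposition order and pair no samples. Alternatives were other background corrections and value tables, scaling, probe means, a filter on dim genes, slide or scan day as a block, array weights, other sets of arrays, and leaving out each array. The number of arrays limits the precision.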

Additional observations from a re-analysis of the deposited data

Results flagged for a closer look

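Of 156 gene and group combinations of 5 mice, 13 held 1 mouse whose gap to its neighbours was a large part of the range of the group, where chance alone gives about 1 in 20. All values here are on the log2 ratio scale. Control replicate 3 stood apart in 3 clock genes, with Dbp at 2.26 (others -0.69 to -0.25), Arntl at -1.70 (others 0.36 to 0.82) and Per2 at 0.98 (others -0.12 to 0.14). Control replicate 2 had Orm1 at 0.94 (others -0.17 to 0.10) and Lcp2 at -0.21 (others -0.10 to -0.07), and control replicate 1 had Hnrnpdl at -1.15 (others -0.84 to -0.72). At 18 µg, replicate 4 had Cxcl1 at -4.89 (others -3.90 to -3.57) and Il6 at -2.06 (others -1.32 to -1.04), replicate 5 had Pde4b at 2.29 (others 1.74 to 1.88) and replicate 3 had Tinag at 4.39 (others 4.17 to 4.23). At 54 µg, replicate 2 had Csrnp1 at -0.03 (others 0.31 to 0.42), replicate 4 had Dipk1b at -1.48 (others -0.87 to -0.68) and replicate 1 had Adamts9 at 0.37 (others 0.61 to 0.68).

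Effects also differed between groups by a test of the difference itself. Hpx differed between 54 and 18 µg by 1.26 (limma adjusted p = 0.036). Between NRCWE-030 and NRCWE-025 at the lower doses, Nxph3 differed by -0.93, Tspan4 by 0.79, Per2 by 0.66, Eya1 by -0.59 and Wdr45 by -0.60, with limma adjusted p-values from 3.81e-08 to 0.00144.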

How the results depend on the processing

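Counts of called genes are given in the order lower doses against control, 18 µg, 54 µg, 54 against 18 µg, F-test, 162 µg against the lower doses, and NRCWE-030 against NRCWE-025. As reported they were 1, 0, 2, 1, 2, 14 and 43. With marked backgrounds kept, 54 µg gave 6, 162 µg 7 and NRCWE-030 14. Without background correction, 18 µg gave 1, 54 µg 1, the doses against each other 0, the F-test 1 and NRCWE-030 23. On the series matrix values, the doses gave 0, the F-test 0, 162 µg 9 and NRCWE-030 24. On the scanner's log ratio, the lower doses gave 0, 54 µg 5, the doses 0, the F-test 0 and NRCWE-030 77. Scaling between arrays gave 0 for the lower doses, 0 between doses and 22 for NRCWE-030. Slide as a random block gave 3, 1, 13, 3, 15, 112 and 66, and slide as a fixed block, with 4 residual degrees of freedom, 0 for the lower doses, 0 for 54 µg, 0 for the F-test, 31 for 162 µg and 27 for NRCWE-030. Scan day as a block gave 2 between doses and 46 for 162 µg. Array weights gave 4 at 54 µg. With the 162 µg arrays in the fit (20 arrays) the lower doses, 54 µg, the doses and the F-test gave 0, and with all 69 arrays they gave 0, 1, 0 and 0. With only the groups of the contrast, 162 µg gave 3 and NRCWE-030 12. The ordinary F-test gave 0. Slide 5 left out, chosen after seeing the data, gave 1, 0, 2, 1, 2, 18 and 24. The causes of these shifts were not tested.

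Leaving out 1 array gave 0 to 4 genes for the lower doses, 0 to 1 at 18 µg, 0 to 24 at 54 µg, 0 to 1 between doses, 0 to 12 for the F-test, 2 to 45 for 162 µg and 19 to 111 for NRCWE-030. The highest counts at 54 µg and in the F-test came without replicate 3 of the 54 µg group, and 111 came without replicate 2 of the 18 µg group of NRCWE-030. The difference in the share of spots well above background ran from -2.52 to 0.236 percentage points, turning its sign without control replicate 4. Of 763 values of 51 named genes under other settings, 22 turned their sign, 7 lost a call and 4 gained one. Of 765 with 1 array left out, 11 turned their sign and 4 lost a call. Among these genes only Ddb1 was called as reported, so few calls could be lost. Ddb1 stayed between -0.62 and -0.51 under other settings and was called in 8 of 15. By replicate number, no paired analysis was possible because the numbers only follow deposition order; slide, which pairs some arrays, was fitted as a block above. With 5 mice a group, a median 95% half-width of 0.195 and dim spots such as Cxcl3, smaller shifts were not detectable.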

Other observations

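None of the lists described here held a gene called for the lower doses against control, where 1 of 18664 genes was called (0.00536%). The values carry no test. Of 5 smooth muscle genes and of 5 squamous epithelium genes, none was higher (median log2 differences of -0.18 and -0.20, with Krt14 at -0.42), beside -0.01 for all genes, and these medians kept their sign in the 30 settings tried. Of 12 heart muscle genes 11 were lower (median -0.28), and of 8 skeletal muscle genes 6 (-0.15). All 17 measured members of the study's bicluster-9, which holds Cfd and heart muscle genes such as Myh6 and Tnni3, were lower (median -0.31). Their mean was 1.05 to 4.23 in the controls, 0.75 to 3.51 at 18 µg and 0.92 to 2.82 at 54 µg, so the groups overlapped. The medians of the heart muscle list and of bicluster-9 turned their sign in 3 of the 30 settings each and were highest without control replicate 2, at 0.477 and 0.243.

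The median was 0.23 for 5 alveolar type 1 genes, -0.04 for 8 alveolar type 2 genes, -0.15 for 8 ciliated cell genes, 0.04 for 8 endothelial genes, 0.08 for 5 erythroid genes, -0.05 for 8 natural killer cell genes and -0.01 for 3 thymus genes. The 9 MHC class II genes had a median of -0.13, 17 heat shock and cold-inducible genes -0.05, 14 glucocorticoid and fasting genes -0.08 and 20 cholesterol synthesis genes 0.03. Biclusters 1, 2, 4, 5, 6, 8 and 10 had medians of 0.02, 0.00, 0.06, -0.02, 0.02, 0.03 and -0.04. Of the medians in this paragraph, those of the ciliated cell list and bicluster-10 did not turn their sign in any setting tried.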
